A study of Mus musculus with 28 samples.

Results

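The comparison described here asks whether the expression difference between 2 labelled lineages of basal skin cells, Slc1a3+ and Aspm+, was the same in back skin as in tail skin. Its members are 10 of the 28 libraries of the series, the labelled (P6) libraries of those 2 lines. Back skin gives 3 libraries per line, replicates 1, 2 and 4, and tail skin gives 2 per line, replicates 1 and 2. For every gene the line difference, Slc1a3+ minus Aspm+, was taken at each site on the log2 scale, and the tail value was subtracted from the back value. That quantity is called the site contrast below. A positive site contrast means that the Slc1a3+ cells stood higher relative to the Aspm+ cells in back skin than in tail skin. The same contrast was computed in the 10 P5 libraries, the total cells of the same lines and sites.

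The mice carried RosatdTomato, a red fluorescent reporter, together with Slc1a3CreER or AspmCreER, a recombinase that works once tamoxifen is given. The labels call both genotypes WT, and the reporter cross and the tamoxifen are shared by all 4 groups, so none of them is an untreated control. The mice received tamoxifen daily for 5 days, from postnatal day 30 to 34. Harvest followed after 2 weeks, on day 49, when hair follicles rest (telogen). The labels name the labelled cells as IFE (interfollicular epidermis, which covers the surface between follicles), positive for the line's gene, and the P5 libraries as total IFE. They do not say which libraries came from separate mice, so the p-values measure the spread between these libraries, which may be technical. Expression was measured by RNA sequencing of poly(A) RNA, and levels are given in CPM, counts relative to the library's total after scaling for composition, which do not correct for gene length.

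The basal layer is the dividing layer of the epidermis, and its cells renew the tissue by moving outwards as they differentiate. Tail epidermis is patterned into scale and interscale territories that differ in their differentiation, while back epidermis lacks this pattern. Slc1a3 encodes a glutamate and aspartate transporter of the cell membrane, and Aspm encodes a protein of the mitotic spindle pole, found in dividing cells.

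The 10 labelled libraries held 11669653 to 35604425 counts and the 10 totals 7738262 to 28334458. The basal keratinocyte markers Krt5, Krt14, Col17a1, Itga6, Itgb4, Itgb1 and Trp63 summed to 42300 to 53300 CPM in back labelled libraries, 86900 to 88800 in tail Aspm+ and 113000 to 117000 in tail Slc1a3+. The suprabasal keratinocyte markers Krt1, Krt10, Lor, Flg and Ivl were not low. They summed to 8350 to 11700 CPM in back labelled libraries, 9000 to 11000 in tail Aspm+ and 8570 to 8970 in tail Slc1a3+. Defining markers of cell types other than keratinocytes were low. Fibroblast markers summed to at most 39.2 CPM, endothelial and mural markers to at most 7.49, melanocyte markers to at most 28.7, and myeloid markers to at most 142 and T cell markers to at most 154 in any of these 10, and 3 of the 5 T cell markers were at 0 in tail Slc1a3+ cells. Hair follicle bulge markers, led by Krt15, summed to 12600 to 18700 CPM in back and 2280 to 3320 in tail labelled cells. One total library stood apart, back Slc1a3 replicate 4, with 14436 genes detected against 18650 to 21347 in the other 9 totals. It enters the contrast of the totals. It does not enter the labelled contrast but shares the estimate of the spread.

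Slc1a3 itself measured 22.2, 26.02 and 28.5 CPM in back Slc1a3+ cells and 18.2, 18.1 and 21.8 in back Aspm+ cells. In tail skin it measured 20.4 and 17.6 CPM in Slc1a3+ and 9.08 and 13.99 in Aspm+ cells. Its libraries did not overlap at either site, and its site contrast was -0.32 (SE 0.34, adjusted p = 0.712). Aspm measured 14.03 and 15.9 CPM in tail Slc1a3+ cells and 17.97 and 18.7 in tail Aspm+ cells, and in back skin the ranges overlapped, at 16.2 to 26.02 and 11.2 to 20.4. The site contrast of Aspm was 0.73 (SE 0.47, adjusted p = 0.499), and that of the transcript of the reporter locus, Gt(ROSA)26Sor, was -0.11 (SE 0.45, adjusted p = 0.956).

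Across 17493 genes, 24 passed the test of the site contrast (0.137% of the genes), 22 with a positive value (0.126%) and 2 with a negative one (0.0114%). The split was more even among genes at an unadjusted p under 0.05, with 1319 positive and 1187 negative, and by DESeq2, with 237 and 141. A gene passed at a Benjamini-Hochberg adjusted p under 0.05 by edgeR's quasi-likelihood test. The 22 positive genes included the receptor genes Il20ra, Ptger4 and Robo1, the signalling genes Rasgrp1, Cblb, Srgap1 and Dusp1, and the junction and cytoskeleton genes Cgn, Krt80 and Epb41l2. Since the same libraries chose these genes, the counts that follow only describe the shape of the contrast. In tail skin the difference was negative for all 22 (50.5% of all genes), and 17 passed there as lower in Slc1a3+ cells (0.417% of all genes). Their back differences varied more. The libraries of the lines overlapped for 12 (86.2% of all genes), Egr1 and Dusp1 were among those with all Slc1a3+ libraries higher, and Zc3h12a passed as higher. The median log2 difference between the lines was -1.97 in tail and 0.28 in back, against -0.01 and 0.00 over all genes tested. The 2 negative genes were Aqp3, a water and glycerol channel of basal keratinocytes, and Pwp1.

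**Figure D1:**
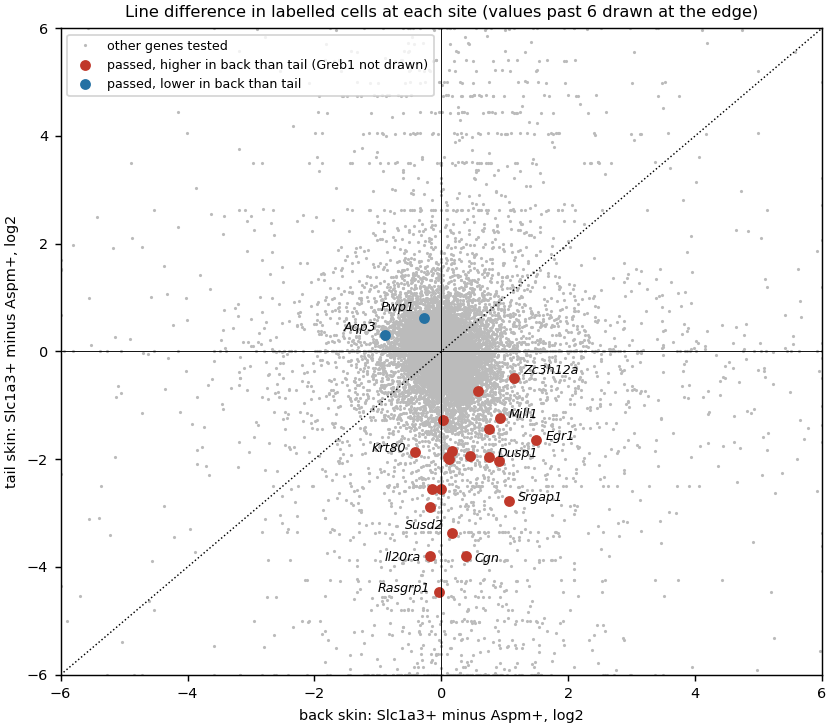
Each point is a gene, placed by its log2 line difference (Slc1a3+ minus Aspm+, labelled cells) in back skin on the x axis and in tail skin on the y axis, and the broken line marks equal differences. The 21 red genes drawn lie below the line with tail values from -4.46 for Rasgrp1 to -0.48 for Zc3h12a, while their back values lie between -0.41 for Krt80 and 1.5 for Egr1; horizontal bands of grey points are genes with few counts.

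Rasgrp1 encodes an exchange factor that switches Ras on when diacylglycerol and calcium rise. Its identifier is ENSMUSG00000027347, on chromosome 2 from 117279993 to 117343001, minus strand (GRCm38). Il20ra (ENSMUSG00000020007, chromosome 10 from 19712570 to 19760053, plus strand) encodes a receptor chain for interleukins 19, 20 and 24. Cgn (ENSMUSG00000068876, chromosome 3 from 94760069 to 94786492, minus strand) encodes cingulin, a protein on the cytoplasmic face of tight junctions. Ptger4, a receptor for prostaglandin E2, lies on chromosome 15 from 5206661 to 5244187, minus strand. Of the 24 genes, 18 have a promoter in the RefSeq table for GRCm38.p6. The bases before the transcription start of these 4 genes are shown as those of the 3 markers and of Ptger4, the receptor gene of next lowest p. Each run reads 5′ to 3′ on the gene's own strand and stops before the first exon of the GENCODE annotation. The stretches are chr2:117343002-117343127 for Rasgrp1, chr10:19712337-19712569 for Il20ra, chr3:94786493-94786732 for Cgn and chr15:5244188-5244437 for Ptger4. Capitals mark matches, on either strand, to the AP-1 motif TGANTCA, the cyclic AMP response element TGACGTCA, the grainyhead motif AACCNGTT, the GC box GGGCGG, the TCF motif ATCAAAG or the CArG box. Matches may overlap, as 2 GC boxes do in Ptger4.
Rasgrp1: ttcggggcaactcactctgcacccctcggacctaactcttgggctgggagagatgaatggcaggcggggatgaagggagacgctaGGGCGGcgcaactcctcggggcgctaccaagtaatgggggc
Il20ra: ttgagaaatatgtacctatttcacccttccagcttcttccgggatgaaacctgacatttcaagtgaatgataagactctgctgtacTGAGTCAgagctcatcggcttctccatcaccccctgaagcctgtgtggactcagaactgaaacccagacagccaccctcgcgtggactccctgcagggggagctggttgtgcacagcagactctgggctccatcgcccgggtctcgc
Cgn: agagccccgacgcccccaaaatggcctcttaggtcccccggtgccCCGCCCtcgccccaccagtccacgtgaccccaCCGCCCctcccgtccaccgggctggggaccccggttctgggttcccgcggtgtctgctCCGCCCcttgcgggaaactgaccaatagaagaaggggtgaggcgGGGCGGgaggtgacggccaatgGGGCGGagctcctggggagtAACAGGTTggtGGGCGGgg
Ptger4: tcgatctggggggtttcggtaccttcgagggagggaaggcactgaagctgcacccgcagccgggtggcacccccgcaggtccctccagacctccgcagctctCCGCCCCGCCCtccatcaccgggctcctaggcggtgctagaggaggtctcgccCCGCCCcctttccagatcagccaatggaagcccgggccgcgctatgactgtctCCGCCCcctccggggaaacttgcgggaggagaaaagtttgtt
The stretch of Il20ra holds 1 AP-1 match and 0 GC boxes, that of Cgn 1 grainyhead match and 6 GC boxes, and those of Rasgrp1 and Ptger4 hold 1 and 4 GC boxes. A GC box stood in the 250 bases before the start in 13 of 19 promoters of the genes that passed and in 32.7% of all 32851 promoters of the table. An AP-1 match stood in 2 of the 19, those of Il20ra and Pwp1, and in 6.75% of all. A grainyhead match stood in 1 of the 19, that of Cgn, and in 1.79% of all. The motif matches are descriptions of the letters and were not tested for binding.

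Among the receptors, Il20ra was measured at 135, 115 and 140.1 CPM in back Slc1a3+ cells and 166.5, 124 and 151 in back Aspm+ cells. In tail skin it stood at 0.873 and 1.009 CPM in Slc1a3+ cells, 15 and 17 counts, and at 13.5 and 12.7 in Aspm+ cells. The back libraries of the lines overlapped, and the tail libraries were separated by more than 10 CPM. The line difference was -0.18 (SE 0.18) in back and -3.79 (SE 0.30) in tail, and the site contrast was 3.61 (SE 0.35, adjusted p = 3.24e-06). In the totals Il20ra stood at 8.95 and 10.5 CPM in the tail Slc1a3 line and 12.5 and 14.7 in the tail Aspm line, and the contrast there was 0.32 (SE 0.29, adjusted p = 0.618). The related chains did not pass. Il20rb, the partner of Il20ra, measured 351 to 421 CPM over the 6 back libraries, 249 and 247 in tail Slc1a3+ and 203 and 222 in tail Aspm+ cells, with a site contrast of -0.33 (SE 0.18, adjusted p = 0.412). Il22ra1, which can pair with Il20rb in place of Il20ra, had a site contrast of -0.07 (SE 0.57, adjusted p = 0.993) at levels of 1.30 to 9.67 CPM, and Ifnlr1, a receptor for type III interferons, 0.76 (SE 0.36, adjusted p = 0.343). Of the 7 members tested of a list of interleukin 20 and related receptors, Il20ra was the 1 that passed, 4 had positive and 3 negative contrasts, and the median was 0.02, against 0.04 over all genes.

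Ptger4 measured 62.7, 60.5 and 53.0 CPM in back Slc1a3+ cells and 58.5, 43.0 and 56.1 in back Aspm+ cells. The tail libraries stood at 3.78 and 4.10 CPM in Slc1a3+ cells and 16.9 and 11.3 in Aspm+ cells. Both lines were thus lower in tail than in back skin, and the tail Slc1a3+ cells were lowest. The site contrast of Ptger4 was 2.00 (SE 0.29, adjusted p = 0.00128), with a tail difference of -1.84 and a back difference of 0.16. Its exons overlap those of Ttc33 on the other strand, and the libraries do not record strand. The site contrast of Ttc33 was -0.42 (SE 0.31, adjusted p = 0.566). Robo1, the receptor for Slit guidance proteins, averaged 112 CPM (SD 37.5, n = 3) in back Slc1a3+ and 81.8 (SD 14.1, n = 3) in back Aspm+ cells. In tail skin it averaged 6.81 CPM (SD 0.986, n = 2) and 26.2 (SD 9.05, n = 2), for a site contrast of 2.40 (SE 0.46, adjusted p = 0.0300). Srgap1, a GTPase activating protein that binds Robo receptors, had a site contrast of 3.84 (SE 0.62, adjusted p = 0.00416). It rested on 12 counts over both tail Slc1a3+ libraries against 91 in tail Aspm+ cells. Srgap1 measured 10.2, 16.9 and 11.3 CPM in back Slc1a3+ and 9.01, 6.15 and 3.11 in back Aspm+ cells, and those ranges did not overlap.

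Susd2, which encodes a membrane protein with a sushi domain, gave the lowest p of all genes. Its level was 203, 197 and 200 CPM in back Slc1a3+ cells and 196, 189.5 and 146 in back Aspm+ cells. In tail skin the values were 3.84 and 3.03 CPM in Slc1a3+ cells and 39.0 and 31.8 in Aspm+ cells. Back levels were thus close in both lines, and tail Slc1a3+ cells stood apart from every other group. The line difference was 0.17 (SE 0.15) in back and -3.36 (SE 0.21) in tail, and the site contrast was 3.54 (SE 0.26, adjusted p = 1.52e-08). The totals of the tail Slc1a3 line, at 43.0 and 39.9 CPM, were close to those of the tail Aspm line, at 49.9 and 38.9, and the contrast of the totals was 0.06 (SE 0.23, adjusted p = 0.948). Col23a1, a transmembrane collagen, followed the same course in labelled cells, while its totals held a contrast of 1.02 (SE 0.35, adjusted p = 0.156). Its back Slc1a3 totals stood at 107, 124 and 242 CPM, the highest in replicate 4, the total library with few genes detected. In labelled cells Col23a1 measured 79.6, 79.7 and 105 CPM in back Slc1a3+, 91.4, 91.8 and 81.8 in back Aspm+, 2.15 and 2.43 in tail Slc1a3+ and 14.3 and 12.6 in tail Aspm+ cells, a site contrast of 2.54 (SE 0.38, adjusted p = 0.00234).

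**Figure D2:**
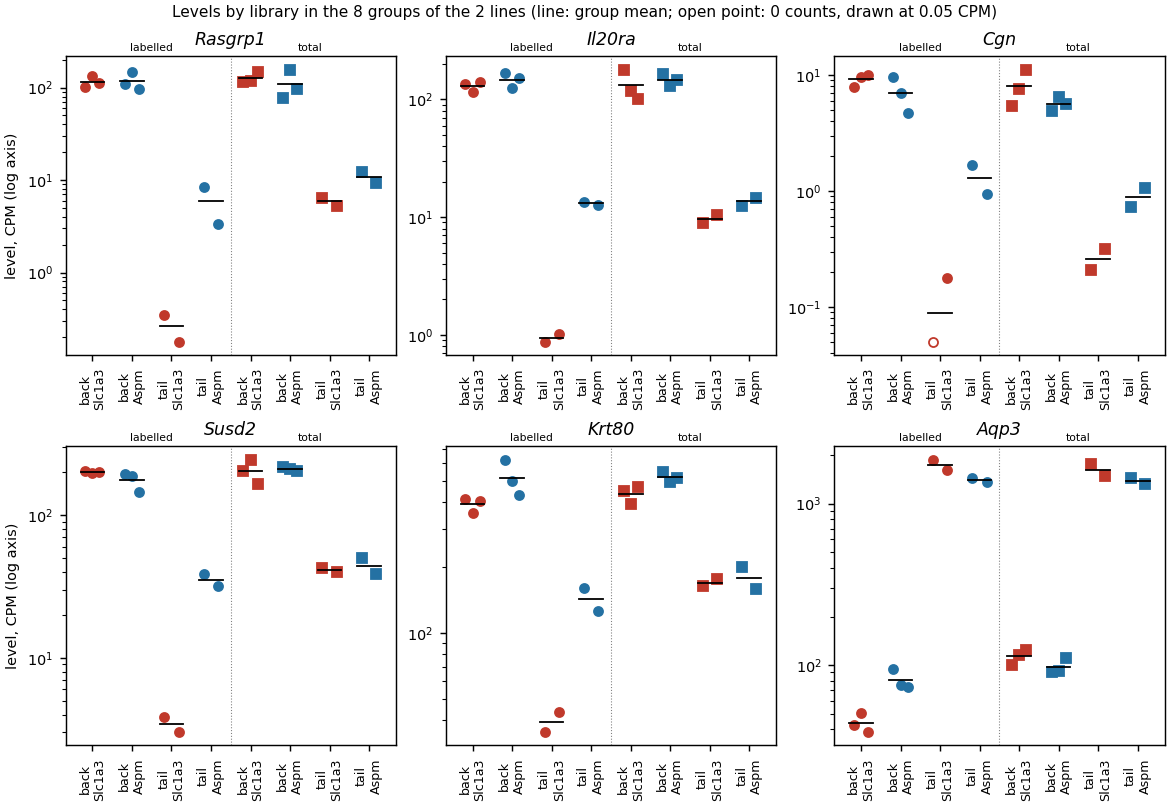
Levels of 6 genes in CPM on a log axis in the 4 labelled groups (circles, left) and the 4 totals (squares, right), 1 point per library, red for the Slc1a3 line and blue for the Aspm line, with black lines for group means. For Rasgrp1, Il20ra, Cgn, Susd2 and Krt80 the tail Slc1a3+ points lie below all others drawn, whereas Aqp3 is lowest in back Slc1a3+ cells, at 38.6 to 50.2 CPM, and high in all tail libraries.

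Of the signalling genes, Rasgrp1 measured 101, 132.5 and 111 CPM in back Slc1a3+ cells and 109.8, 147 and 97.4 in back Aspm+ cells. It was nearly absent from tail Slc1a3+ cells, at 0.349 and 0.178 CPM, or 6 and 3 counts, and stood at 8.40 and 3.36 CPM in tail Aspm+ cells. Rasgrp1 thus had equal back levels, within the spread of the libraries, and separated tail levels. Its line difference was -0.04 (SE 0.24) in back and -4.46 (SE 0.53) in tail, and its site contrast of 4.43 (SE 0.60, adjusted p = 6.53e-04) was the largest among the 21 positive genes with counts in all 4 groups. Summed over libraries, tail Slc1a3+ cells held 0.0428 of the level in tail Aspm+ cells (95% exact binomial interval 0.0193 to 0.0827, counting error only). In the totals the contrast was 1.10 (SE 0.41, adjusted p = 0.195), with 6.47 and 5.27 CPM in the tail Slc1a3 line and 12.3 and 9.29 in the tail Aspm line.

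Around Rasgrp1, a list of 33 genes for Ras activation and feedback on the kinase ERK had 31 members tested. Of these, 22 had positive contrasts, against 9160 of the 17493 genes over all. Rasgrp1 was the 1 that passed, as did 0.137% of all genes. The list's median was 0.28 against 0.04 over all genes, and its median exonic length was 5347 bases against 3645. The members with the next lowest p were Rasal2, a Ras GTPase activating protein (1.30, SE 0.49, adjusted p = 0.232), and Nf1, neurofibromin, which switches Ras off (1.10, SE 0.41, adjusted p = 0.232), beside Rasal1. Rasal1, also a Ras GTPase activating protein, had 0 counts in both tail Slc1a3+ libraries and 16 in tail Aspm+ cells. Cblb, a ubiquitin ligase that restrains receptor signalling, passed with a smaller contrast of 1.31 (SE 0.26, adjusted p = 0.0375). Its tail libraries stood at 21.4 and 29.2 CPM in Slc1a3+ and 65.9 and 56.8 in Aspm+ cells, while its back libraries overlapped at 88.6 to 114 CPM. The totals showed the same contrast for Cblb, 1.38 (SE 0.26, adjusted p = 0.0861).

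Dusp1, a phosphatase that switches off MAP kinases, is among the genes that respond at once to signals or stress. It measured 173, 241 and 209 CPM in back Slc1a3+ and 164, 99.3 and 108 in back Aspm+ cells, and 10.2 and 14.4 in tail Slc1a3+ against 54.2 and 40.8 in tail Aspm+ cells. The Slc1a3+ libraries were all higher in back and both lower in tail, and the site contrast was 2.7 (SE 0.35, adjusted p = 3.77e-04). Dusp1 shares exonic bases with Ergic1 on the other strand, whose site contrast was 0.18 (SE 0.33, adjusted p = 0.851). Egr1, a transcription factor induced by ERK signalling, reversed between the sites. It measured 76.6, 113 and 93.1 CPM in back Slc1a3+ against 31.9, 45.8 and 22.2 in back Aspm+ cells, and 23.9 and 22.4 in tail Slc1a3+ against 94.0 and 51.0 in tail Aspm+ cells. The site contrast of Egr1 was 3.15 (SE 0.61, adjusted p = 0.0375), though neither site passed alone, at 1.5 (adjusted p = 0.137) and -1.65 (adjusted p = 0.152). Zc3h12a, an RNase that degrades cytokine messenger RNAs, was the 1 positive gene that passed in back skin. It stood at 49.3, 42.1 and 43.5 CPM in back Slc1a3+ and 22.5, 15.8 and 22.6 in back Aspm+ cells, a difference of 1.15 (SE 0.20, adjusted p = 0.00864). Its tail difference was -0.48 (SE 0.24, adjusted p = 0.443) and its site contrast 1.64 (SE 0.31, adjusted p = 0.0300).

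A list of 28 immediate early and stress genes had 27 members tested, and Dusp1, Egr1 and Zc3h12a passed. Positive contrasts were found for 21 of the 27, with a median of 0.49, against 9160 of the 17493 genes and a median of 0.04 over all. In the totals 19 were positive, with a median of 0.29 against 0.02 over all. Of all genes 0.137% passed in labelled cells. Nr4a1, an orphan nuclear receptor gene, came next, with a contrast of 2.57 (SE 0.57, adjusted p = 0.0660) and a back difference of 2.20 (adjusted p = 0.00779). Jun, an AP-1 subunit, measured 25.7 and 22.4 CPM in tail Slc1a3+ against 85.9 and 74.1 in tail Aspm+ cells, a tail difference of -1.73 (adjusted p = 0.0117). Its site contrast was 1.65 (SE 0.42, adjusted p = 0.10). Fos, the partner of Jun, had a contrast of 2.28 (SE 0.72, adjusted p = 0.161), and Junb 0.49 (SE 0.28, adjusted p = 0.439). In the totals the contrasts of Egr1, Nr4a1 and Fos were 2.45, 2.89 and 2.37, with adjusted p of 0.0861, 0.0861 and 0.116.

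Cgn was the tight junction gene of the set and the least abundant marker. Its levels were 7.94, 9.70 and 9.97 CPM in back Slc1a3+ and 9.52, 6.95 and 4.69 in back Aspm+ cells. In tail Slc1a3+ cells it had 0 counts in replicate 1 and 3 counts in replicate 2, against 34 and 15 counts in the tail Aspm+ libraries. The tail ratio of Slc1a3+ to Aspm+ over these counts was 0.0658 (95% exact binomial interval 0.0131 to 0.204, counting error only). The site contrast of Cgn was 4.19 (SE 0.83, adjusted p = 0.0375), and in the totals 2.19 (SE 0.72, adjusted p = 0.140), at 0.207 and 0.315 CPM in the tail Slc1a3 line and 0.722 and 1.05 in the tail Aspm line. The value of Cgn ranged from 3.22 to 8.23 over 19 other settings. That of 8.23 came without tail Slc1a3+ replicate 2, which leaves the group at 0 counts, and is no measure of size. The next highest was 4.53. The call of Cgn was lost in 9 of the 19. Among the 9 were leaving out tail Slc1a3+ replicate 1 (3.22), tail Aspm+ replicate 1 (3.72), back Slc1a3+ replicate 2 (4.15) or 4 (4.13), and back Aspm+ replicate 2 (4.17) or 4 (3.97).

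Of 29 tight junction and polarity genes tested, 20 had positive contrasts, against 9160 of the 17493 genes over all. Cgn was the 1 that passed, as did 0.137% of all genes. The list's median was 0.27, and 0.21 in the totals, against 0.04 and 0.02 over all genes. Its median exonic length was 4844 bases against 3645. Magi1, a junction scaffold, had a contrast of 1.23 (SE 0.38, adjusted p = 0.161), and Tjp1, which encodes the scaffold ZO-1, 0.97 (SE 0.35, adjusted p = 0.213). Tjp1 stood at 18.9 and 22.4 CPM in tail Slc1a3+ and 39.3 and 35.3 in tail Aspm+ cells. Cldn7, a claudin, had 0 counts in tail Aspm+ cells and 18 in tail Slc1a3+ cells. Cgnl1, the paralog of Cgn, had a contrast of 1.49 (SE 1.09, adjusted p = 0.560). A pair of cytoskeletal genes passed beside these lists. Krt80, a type II keratin, measured 409.9, 354 and 401.5 CPM in back Slc1a3+ and 622.5, 495 and 430.0 in back Aspm+ cells, and 35.2 and 43.3 in tail Slc1a3+ against 160.4 and 126 in tail Aspm+ cells. It was lower in Slc1a3+ cells at both sites, by 0.41 on the log2 scale in back (adjusted p = 0.335) and by 1.87 in tail (adjusted p = 1.55e-06), for a site contrast of 1.46 (SE 0.22, adjusted p = 0.00274). Its exons overlap those of Gm35853 on the other strand, a gene with 7859 counts over all libraries against 207645 for Krt80. Epb41l2, which links the membrane to the actin cytoskeleton, stood at 1.75 and 1.72 CPM in tail Slc1a3+ and 8.30 and 5.10 in tail Aspm+ cells, with 17.97 to 25.3 over the 6 back libraries and a contrast of 2.07 (SE 0.42, adjusted p = 0.0451).

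The remaining positive genes had varied roles. Man1a, a Golgi mannosidase that trims N-linked sugars, stood at 0.989 and 0.356 CPM in tail Slc1a3+ and 4.01 and 3.92 in tail Aspm+ cells, with 27.1 to 38.9 in the 6 back libraries. Its site contrast was 2.40 (SE 0.38, adjusted p = 0.00393). Maob, monoamine oxidase B, stood at 1.69 and 1.84 CPM in tail Slc1a3+ cells and at 11.1 to 20.0 in all 8 other labelled libraries of the 2 lines, with a contrast of 2.71 (SE 0.47, adjusted p = 0.0130). Etnk1, an ethanolamine kinase, had a contrast of 1.31 (SE 0.27, adjusted p = 0.0451), and Mill1, an MHC class I-like gene, 2.17 (SE 0.42, adjusted p = 0.0335). Mill1 libraries stood higher in back Slc1a3+ cells, at 77.4, 156 and 111 CPM against 65.7, 41.2 and 75.0, and lower in tail Slc1a3+ cells, at 6.81 and 5.995 against 18.4 and 11.8, but neither site passed alone (0.92, adjusted p = 0.165 in back, and -1.24, adjusted p = 0.117 in tail). Ccdc9b had a contrast of 2.19 (SE 0.45, adjusted p = 0.0499) and the predicted gene Gm21781 2.94 (SE 0.54, adjusted p = 0.0225). Greb1, an oestrogen-responsive gene, had 66 and 13 counts in tail Aspm+ cells and 0 in tail Slc1a3+ cells, a level at least 24.5-fold lower, taking 3 counts over the group as the floor. In back skin it had 4 counts in all Slc1a3+ libraries and 0 in Aspm+, so no fold is given there. Without Greb1 the median contrast of the positive genes was 2.40 over 21 genes, and 2.47 with it. Epb41l2, Etnk1, Ccdc9b, Greb1 and Gm21781 fell outside the rule for named genes and were named after their values were seen.

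The 2 negative genes differed in shape. Aqp3 was far more abundant in tail than in back skin. It measured 42.4, 50.2 and 38.6 CPM in back Slc1a3+ and 94.4, 75.3 and 72.7 in back Aspm+ cells, and 1870 and 1605 in tail Slc1a3+ against 1445 and 1360 in tail Aspm+ cells. The line difference was -0.88 (SE 0.14, adjusted p = 0.00466) in back and 0.31 (SE 0.17, adjusted p = 0.487) in tail, and the site contrast was -1.19 (SE 0.22, adjusted p = 0.0225). The back totals of Aqp3 did not show it, at 101 to 123.5 CPM in the Slc1a3 line and 90.7 to 111 in the Aspm line, with a contrast of -0.02 (SE 0.22). Pwp1, a WD repeat protein, stood at 38.03 to 40.6 CPM in back Slc1a3+ and 42.2 to 52.0 in back Aspm+ cells, and at 87.0 and 83.5 in tail Slc1a3+ against 61.1 and 49.3 in tail Aspm+ cells. Its site contrast was -0.91 (SE 0.19, adjusted p = 0.0499), and it passed in 5 of 20 other settings.

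The components of the contrast were tested at each site. In back skin 28 genes (0.16%) passed between labelled Slc1a3+ and Aspm+ cells, 8 higher (0.0457%) and 20 lower (0.114%) in Slc1a3+, a split of 13 and 11 when scaled by library totals. In tail skin 86 (0.492%) passed, 13 higher (0.0743%) and 73 lower. All 22 positive genes had negative tail differences (50.5% of all genes), 17 passed there (0.417% of all genes passed in that direction), and in 12 the back libraries of the lines overlapped (86.2% of all genes). For all 22 both tail Slc1a3+ libraries were below both tail Aspm+ libraries, as for 24.2% of all genes. In 19 of the 22 both were below all 10 other tail libraries, which include the Dlx1 line and the totals, as for 5.67% of all genes, and 5.62% of all genes had both above the other 10. Since these genes were chosen by the contrast that holds the same libraries, the counts describe its shape and support nothing.

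The positive genes were mostly genes of back skin. Between the totals of the 2 lines, 8085 genes (46.2%) passed between sites, and 20 of the 22 were higher in back, as were 23.7% of all genes. Their median back minus tail difference in the totals was 1.60. The exceptions were Greb1, higher in tail, and Egr1, which did not pass, at -0.01 (SE 0.30). Against their own totals, tail Slc1a3+ cells were lower for 12 of the 22 genes (0.497% of all genes) and higher for 0 (0.0171%). This comparison shares the tail Slc1a3+ libraries with the site contrast. Of the same 22, 0 passed in tail Aspm+ (0.00572%), back Slc1a3+ (0.109%, of which 0.0171% higher and 0.0915% lower) or back Aspm+ cells (0%) against theirs. In bulk samples, fewer cells of a type and less RNA per cell cannot be told apart.

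The same contrast in the P5 totals passed for 0 genes (0%) by edgeR, with 2853 genes at an unadjusted p under 0.05, 659 called by DESeq2 and 0 by limma-voom. For 20 of the 22 positive genes the contrast of the totals was also positive (51.1% of all genes), and for 11 it had an unadjusted p under 0.05 (8.5%). Their median was 1.06 in totals and 2.47 in labelled cells. The genes fell along a range. For 12 the contrast of the totals was at least 1 on the log2 scale, among them Egr1 (2.45), Cgn (2.19), Dusp1 (1.63), Srgap1 (1.40), Cblb (1.38), Etnk1 (1.32) and Rasgrp1 (1.10). For 8 it lay within 0.5 of 0, among them Zc3h12a (0.41), Il20ra (0.32), Ptger4 (0.25), Epb41l2 (0.17), Susd2 (0.06), Man1a (-0.18) and Krt80 (-0.18).

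**Figure D3:**
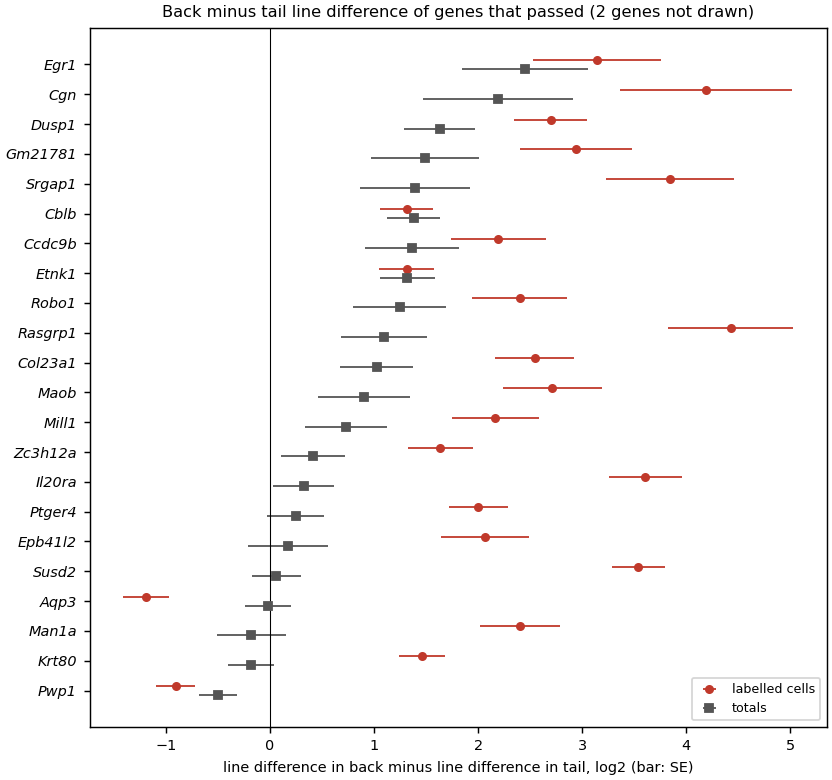
The site contrast (log2, bars are SE) in labelled cells (red circles) and in totals (grey squares) for 22 of the 24 genes that passed, ordered by the value in totals. Cblb and Etnk1 show equal values in both, at 1.31 and 1.38 and at 1.31 and 1.32, whereas Susd2, Il20ra, Krt80 and Man1a show a contrast in labelled cells and values within 0.32 of 0 in totals.

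The difference between the labelled and the total contrast was itself tested, and 2 genes (0.0114%) passed. For Susd2 it was 3.48 (SE 0.34, adjusted p = 8.80e-06) and for Il20ra 3.29 (SE 0.46, adjusted p = 0.00214). Among the genes that did not pass, it was 1.64 for Krt80 (SE 0.31, adjusted p = 0.146), 2.58 for Man1a (SE 0.51, adjusted p = 0.146), 1.76 for Ptger4 (SE 0.39, adjusted p = 0.593) and 3.33 for Rasgrp1 (SE 0.76, adjusted p = 0.622). Cblb and Etnk1 had differences of -0.07 (SE 0.36) and -0.01 (SE 0.38). With labelled and total libraries of the same line and number treated as pairs, 6 genes passed, Susd2 and Il20ra among them. No gene was called lower in this test, and 477 had an unadjusted p under 0.05.

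Gene length and ribosomal transcripts moved with the contrast. The median contrast over all genes rose with exonic length, from -0.35 in the shortest of 5 equal bins of genes to 0.30 in the longest, and in the totals from -0.35 to 0.35. The difference between labelled and total contrasts did not show this, at 0.03 and -0.06. The 22 positive genes had a median exonic length of 5668 bases, and 15 of them were in the longest 2 bins. All 28 cytosolic ribosomal protein genes had negative contrasts, with a median of -0.90 and 0 that passed, and in the totals all 28 were negative as well, with a median of -0.92. Ribosomal protein genes took 10.2% and 8.58% of the counts in tail Slc1a3+ libraries, 7.10% and 7.88% in tail Aspm+, and 3.98% to 8.09% in back labelled libraries. The nuclear genes of oxidative phosphorylation were negative for 27 of 28, with a median of -0.65. Over all genes 8331 of 17493 were negative. With the length trend of each library taken out, an alternative chosen after seeing the data, 26 genes passed, 20 of them positive, of which 21 were among the 24. The part of transcript length or RNA quality in single genes was not tested.

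**Figure D4:**
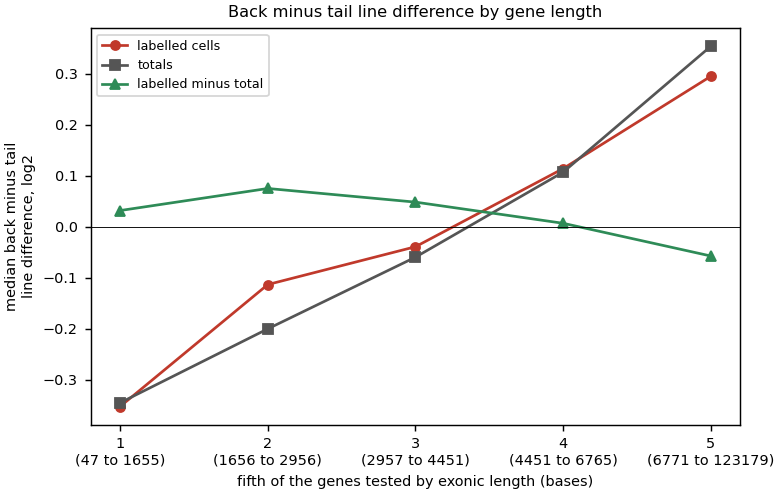
Median site contrast (log2, y axis) over the genes tested, divided by exonic length into 5 equal bins (x axis), for labelled cells, totals and the difference of the 2. Labelled cells and totals rise together from -0.35 to 0.30 and 0.35, while their difference stays between -0.06 and 0.08.

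Beside the 4 lists with a member that passed, the other 23 lists held none. The ligands and receptors of the epidermal growth factor receptor (EGFR) had positive contrasts for 13 of 14 members, with a median of 0.86 in labelled cells and 0.40 in totals. Over all genes 9160 of 17493 were positive, with medians of 0.04 and 0.02. The median exonic length of the EGFR list was 5397.5 bases against 3645. Lrig1, a membrane protein that restrains EGFR and marks cells of the upper follicle, had the lowest p of the list, with a contrast of 2.42 (SE 0.51, adjusted p = 0.0534). It measured 254, 180.3 and 155 CPM in back Slc1a3+ and 347, 152 and 157 in back Aspm+ cells, and 9.66 and 11.5 in tail Slc1a3+ against 79.1 and 46.3 in tail Aspm+ cells. The tail libraries of Lrig1 were separated and the back libraries overlapped, with a tail difference of -2.57 (adjusted p = 0.00251). Tgfa, an EGFR ligand, also passed in tail, at -1.77 (adjusted p = 0.0438), with a contrast of 1.03 (adjusted p = 0.359). Egfr itself had a contrast of 0.21 (SE 0.30, adjusted p = 0.800) and Hbegf, another ligand, 1.64 (SE 0.62, adjusted p = 0.232).

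Upper follicle and sebaceous genes were positive for 12 of 15, with a median of 0.47, whereas their median in totals was -0.09. Bulge and germ genes were positive for 16 of 20, with medians of 0.39 and -0.03. Over all genes 9160 of 17493 were positive, with medians of 0.04 and 0.02. Marker sums of the upper follicle and sebaceous gland and of the bulge were lower in tail Slc1a3+ than in tail Aspm+ libraries. Sebaceous and upper follicle markers summed to 1090 to 1240 CPM in tail Slc1a3+ and 1300 to 1460 in tail Aspm+ cells, and bulge markers to 2280 to 2680 and 2720 to 3320. The bulge sums were mostly Krt15, at means of 2437 CPM in tail Slc1a3+ and 2956 in tail Aspm+ cells. Of the others, Sox9 averaged 8.12 and 20.7 CPM and Lgr5 0.27 and 0.82, while Cd34 went the other way, at 2.71 and 1.015. In back skin both sums overlapped between the lines. Sebaceous and upper follicle markers summed to 625 to 759 and 546 to 834 CPM, and bulge markers to 12600 to 18700 and 18000 to 18500. None of the 6 markers of either list passed the site contrast, and their part in the results was not tested. Notch genes were positive for 14 of 16, JAK-STAT genes for 18 of 20 and Wnt genes for 26 of 38, against 9160 of 17493 over all. Their medians were 0.50, 0.34 and 0.41 in labelled cells and 0.37, 0.17 and 0.27 in totals. Median exonic lengths of these lists were 5677.5, 6624.5 and 4545 bases, against 3645 over all genes. Mitosis and G2 genes were positive for 20 of 30, with a median of 0.09, close to that of all genes. Scale-type hard keratins had a median of -0.16 in labelled cells and 1.57 in totals, with 0 of 10 passing in either.

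**Figure D5:**
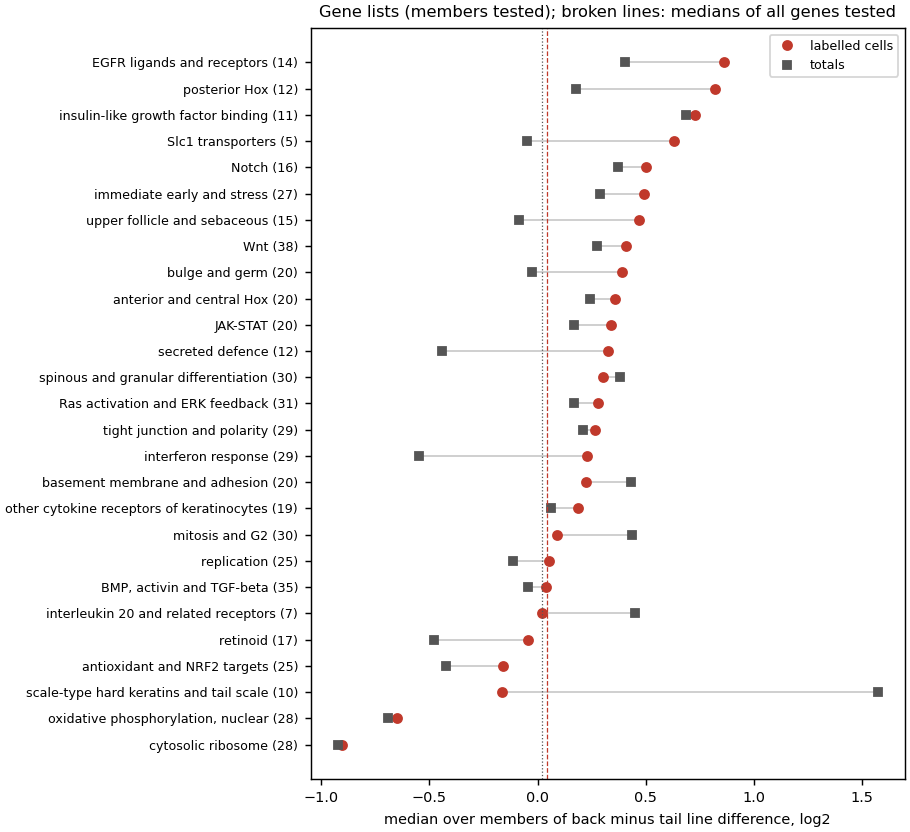
Median site contrast (log2, x axis) over the members of each of 27 gene lists in labelled cells (red circles) and totals (grey squares), with the number of members tested in brackets and broken lines at the medians of all genes, 0.04 and 0.02. The EGFR list lies highest in labelled cells at 0.86, and the cytosolic ribosome list lowest in both, at -0.90 and -0.92.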

How the data were processed

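The data are 28 deposited tables of gene counts, 1 per library. Per the submitters' processing notes, the authors trimmed reads with Trim Galore 0.6.0 and cutadapt, checked them with FastQC, aligned them to GRCm38 (mm10) with STAR 2.7.0e and used DESeq2 1.26.0. The counting program, annotation and strand setting are not given in the sources used here. Per the labels, libraries came from low-input poly(A) RNA with a non-directional kit.

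All 55536 gene identifiers matched GENCODE M21, and 33440 had a count. Library sizes were adjusted by edgeR's TMM method, and 17493 genes passed filterByExpr (minimum count 10). One quasi-likelihood model with 1 mean for each of 12 groups was fitted to all 28 libraries in edgeR 4.0.16 (R 4.3.3), with robust estimation. It had 16 residual degrees of freedom, and the common biological coefficient of variation was 0.28. P-values were adjusted by Benjamini-Hochberg over all genes tested, with a threshold of 0.05. Standard errors were taken from the log2 change and its F statistic. All libraries entered because groups of 2 and 3 share 1 estimate of the spread. DESeq2 1.42.0 and limma-voom 3.58.1 were alternatives, and the model was tested on simulated data.

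The genes named are Rasgrp1, Il20ra and Cgn, the genes of the lines, and the genes that passed with a group mean of at least 5 CPM and no name of a predicted gene, up to 15 each way by lowest p, and up to 5 that passed in labelled minus total. For gene lists, up to 4 members that passed were added by lowest p, which brought in Egr1. Others are given beside them for their role and were chosen after their values were seen. One gene that passed is counted but not reported here. The members and the 27 lists were chosen with earlier results of these data known, and no list was tested as a set.

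Labelled and total libraries of 1 line, site and number deviated together from their group means (r from 0.177 to 0.700 in 14 of 14 pairs over 11505 genes), and were treated as pairs in 1 alternative. The labels do not state this pairing. In groups of 2 both pairs share 1 value, because the deviations mirror each other, so the 14 are not all separate values. Promoter sequences are RefSeq's for GRCm38.p6. Python 3.11.15 and scipy were used for intervals and matplotlib for plots.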

Additional observations from a re-analysis of the deposited data

Results flagged for a closer look

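For 24 genes the line difference in labelled cells differed between back and tail skin by the test of the difference itself, edgeR's quasi-likelihood test of the site contrast. Values are site contrasts on the log2 scale. The marker genes gave 4.43 for Rasgrp1, 3.61 for Il20ra and 4.19 for Cgn. Other receptor, signalling and surface genes gave 3.54 for Susd2, 2.00 for Ptger4, 2.40 for Robo1, 3.84 for Srgap1, 1.31 for Cblb, 2.54 for Col23a1 and 2.17 for Mill1. The immediate early genes gave 2.7 for Dusp1, 3.15 for Egr1 and 1.64 for Zc3h12a. The cytoskeletal genes gave 1.46 for Krt80 and 2.07 for Epb41l2. The enzymes gave 2.40 for Man1a, 2.71 for Maob and 1.31 for Etnk1. Ccdc9b gave 2.19, Gm21781 2.94, Aqp3 -1.19 and Pwp1 -0.91. The fitted value of Greb1, 12.33, depends on the prior count, since both tail Slc1a3+ and all back Aspm+ libraries have 0 counts, and it is no measure of size.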

How the results depend on the processing

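All 24 genes kept the sign of the site contrast in every setting run for them (19 or 20 each). The settings reuse the libraries that chose these genes, so a kept sign adds no support. Susd2 and Dusp1 passed in all 20, and Il20ra, Rasgrp1, Ptger4 and Col23a1 in 19, missing limma-voom, which called Aqp3, Dusp1, Krt80 and Susd2. Other calls held in fewer settings. Krt80 and Man1a passed in 17 of 20, Aqp3, Maob and Srgap1 in 15, Gm21781 in 13, and Egr1, Mill1 and Zc3h12a in 12. Robo1 passed in 11 of 20, Cblb and Epb41l2 in 10, Ccdc9b in 9 and Etnk1 in 8, and Greb1 in 8 of 19. The counts of genes that passed depended on the setting, and the cause was not tested. For the labelled contrast, 24 genes became 131 scaled by library totals (129 positive, with the median of all genes moving from 0.04 to 0.25), 524 without a low-count filter (325 positive), 378 by DESeq2 (237 positive), 4 by limma-voom and 10 with only the 10 labelled libraries. With only the 10 labelled libraries, 15 of the 24 calls were lost, those of Aqp3 and Pwp1 among them. For the totals, 0 became 16, 637 and 659 under library totals, no filter and DESeq2. For labelled minus total, 2 became 38 without a filter, 6 by DESeq2, 1 by limma-voom and 6 with the replicate block of labelled and total. For back skin, 28 became 255 without a filter and 161 by DESeq2. For tail skin, 86 became 142 by library totals, 408 without a filter, 303 by DESeq2, 27 by limma-voom and 54 with only the labelled libraries. The replicate block of back and tail gave 39 for the labelled contrast (15 of them among the 24) and 1 for the totals. The labels do not pair those libraries. An r over 0.1 was found in 3 of 8 pairs (-0.093 to 0.357), which included both pairs of labelled Slc1a3 libraries, and so this block was not taken as a design. The tail deviations in both of those pairs mirror each other, so the pairs are not separate. Between the lines 14 of 26 pairs had an r over 0.1, among them all 3 of back Slc1a3+ and Aspm+ labelled libraries (0.103 to 0.176). The tail pairs share 1 value, -0.141, because deviations in groups of 2 mirror each other. The 14 of 26 counts such shared values for each replicate. The replicate block across lines gave 28 genes in back (20 of them the same) and 71 in tail (62 the same). Of the named genes it lost 0 of 5 calls in back and 2 of 23 in tail, Pwp1 and Greb1.

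Leaving out 1 library at a time gave 8 to 242 genes for the labelled contrast, 0 to 15 for the totals, 2 to 3 for labelled minus total, 9 to 115 for back and 20 to 171 for tail. The labelled count was 8 without tail Aspm+ replicate 1, 9 without tail Slc1a3+ replicate 1 or back Slc1a3+ replicate 4, 13 without back Slc1a3+ replicate 2 and 14 without back Aspm+ replicate 4. It was 47 without back Slc1a3+ replicate 1, 98 without back Aspm+ replicate 1, and 242 (139 positive) without back Slc1a3 total replicate 4, all 24 among these last. That library also set the highest counts for back (115) and tail (171), whereas each tail labelled library left out gave 20 to 42 in tail. Leaving out back Slc1a3+ replicate 2 or 4 or back Aspm+ replicate 4 gave 12, 14 and 9 in back, and back Slc1a3 total replicate 1 gave the 15 in totals. Of the 24 calls, 17 were lost without tail Slc1a3+ replicate 1, 16 without tail Aspm+ replicate 1 and 15 without back Slc1a3+ replicate 4. A lone tail library is then assumed to vary like the other groups. Gt(ROSA)26Sor, at -0.11, turned positive under library totals (0.0945), the replicate block of back and tail (0.17) and removal of the length trend (0.0042, added after seeing the data). It was also positive without back Slc1a3+ replicate 2 (0.0065), back Aspm+ replicate 4 (0.28) or tail Aspm+ replicate 2 (0.03), and ranged from -0.3065 to 0.28 over the libraries left out. Tail levels of Cgn, Rasgrp1, Srgap1 and Man1a in Slc1a3+ cells rest on 3 to 23 counts, which limits their size. Their direction was kept in these settings, which reuse the same counts.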

Other observations

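Some genes differed between the lines at 1 site without passing the site contrast. They were chosen after their values were seen. In back skin Capn2, a calpain protease, was lower in Slc1a3+ cells, at 10.9, 9.47 and 12.7 CPM against 23.5, 26.6 and 26.4 (log2 difference -1.22, adjusted p = 3.74e-04), and in tail skin it stood at 145 and 148 against 155 and 154. Its site contrast was -1.14 (adjusted p = 0.0534). Igfbp3, whose product binds insulin-like growth factors, was higher in back Slc1a3+ cells (1.15, adjusted p = 0.00864), with a tail difference of 0.07 and a site contrast of 1.08 (adjusted p = 0.128).

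In tail skin Adh7, an alcohol dehydrogenase of retinol metabolism, measured 49.99 and 28.01 CPM in Slc1a3+ and 249 and 190.1 in Aspm+ cells (-2.49, adjusted p = 1.14e-04). Its back difference was -0.85 (adjusted p = 0.185, and 0.0273 with the replicate block across lines) and its site contrast 1.64 (adjusted p = 0.0734). Fst, an activin antagonist, was lower in tail Slc1a3+ cells by 3.29 on the log2 scale (adjusted p = 0.00567) and had a back difference of -1.72 (adjusted p = 0.0640, and 0.0472 with that block), with a site contrast of 1.57 (adjusted p = 0.300). Grem1, a BMP antagonist, had 0 counts in both tail Aspm+ libraries and stood at 1.28 and 2.61 CPM in tail Slc1a3+ cells.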
